A study of Mus musculus with 54 samples.

Results

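Cholesterol synthesis genes were followed through intestinal epithelium of mice that differed in diet, in microbes or in the microRNA miR-375. The set holds 8 genes chosen by name: Srebf2, Insig1, Hmgcs1, Idi1, Fdps, Sqle, Lss and Dhcr7. All 8 were found in the mRNA table, which has 48059 named entries, and in the single-cell matrices, which have 27998 genes. None of the 8 encodes a receptor that takes up sterol, so uptake is covered here by a separate gene list.

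The series holds 54 mouse small intestine samples in all. Its 16 mRNA libraries come from crypt cells of C57BL/6J mice, sorted for low fluorescence of a Sox9-EGFP reporter, a fraction in which crypt stem cells are enriched. There were 4 libraries each from mice on chow, on a high fat diet, germ-free (raised without microbes) and conventionalized (germ-free mice that are given microbes). The single-cell data are dissociated intestinal cells of 12 month old mice, labelled C57BL6/2J, with 2 samples of wild type (WT) and 2 of the miR-375 knockout (KO) that share set numbers 1 and 2. The labels do not give the fat content or length of the diets, the time since conventionalization, the ages of the sorted mice, the knockout allele, or how many mice went into a single-cell sample. Where a sample is not known to be a separate mouse, a p-value measures only the spread between samples.

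Cells make cholesterol from acetyl units through the mevalonate pathway. Srebf2 encodes SREBP2, the transcription factor that switches this pathway on, and the membrane protein made from Insig1 holds SREBP2 back in the endoplasmic reticulum when sterol is plentiful. When sterol is scarce SREBP2 is released, and it raises the enzymes of the pathway, Insig1 and its own gene together. In the gut, enterocytes also take up dietary and biliary cholesterol, while renewing crypt cells need sterol for new membranes.

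The binding letters of SREBP2 are known as the sterol regulatory element. RefSeq promoter windows of build GRCm38.p6, from 250 bases before to 50 bases after a gene start, were present for 6 of the 8 genes, and none was matched for Sqle or Fdps. The element was searched as TCACNCCAC on both strands and occurred in 408 of 32851 windows (1.24%). Among the 6 genes it was found in the window of Hmgcs1 only, where it starts at -137 from the gene start. CCAAT, the letters bound by the SREBP2 partner NF-Y, occurred in 37.4% of windows. Hmgcs1 and Idi1 are shown, a choice made after seeing their values, because their values ran in opposite directions in both mRNA comparisons. The 250 bases upstream of each start are printed 5′ to 3′ on the plus strand, with the sterol regulatory element and CCAAT (or its complement ATTGG) in capitals. Those of Hmgcs1 span chr13:119690101-119690350 and those of Idi1 span chr13:8885356-8885605.

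Hmgcs1: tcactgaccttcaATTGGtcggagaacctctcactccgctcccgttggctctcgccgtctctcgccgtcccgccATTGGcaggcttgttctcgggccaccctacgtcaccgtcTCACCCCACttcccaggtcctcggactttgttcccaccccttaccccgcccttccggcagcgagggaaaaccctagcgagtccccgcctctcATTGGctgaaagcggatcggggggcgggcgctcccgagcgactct

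Idi1: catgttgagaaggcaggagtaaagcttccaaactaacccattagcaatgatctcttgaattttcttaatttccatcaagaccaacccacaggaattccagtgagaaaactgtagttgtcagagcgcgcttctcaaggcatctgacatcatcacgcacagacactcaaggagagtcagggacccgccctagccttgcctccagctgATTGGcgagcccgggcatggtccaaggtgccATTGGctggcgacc

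Upstream of Hmgcs1 the capitals mark 1 sterol regulatory element and 3 CCAAT boxes, at -237, -176 and -45. Upstream of Idi1 they mark 2 CCAAT boxes, at -45 and -14, and no match to the sterol regulatory element. The starts of the 2 annotations differ: the RefSeq start of Idi1 lies 105 bases inside the GENCODE gene given next, so both of its boxes lie within that gene, and the RefSeq start of Hmgcs1 lies 28 bases before the GENCODE start. A match describes these letters in this window and does not show binding. A window without this exact spelling may still hold a variant of it, so a missing match does not show that an element is absent. The Srebf2 window holds tcaccccat, which differs from the searched letters only at its end.

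In the GENCODE annotation of GRCm38, Hmgcs1 lies on chromosome 13 from 119690379 to 119708260 and Idi1 on chromosome 13 from 8885501 to 8892451. Fdps lies on chromosome 3 from 89093588 to 89101959, Dhcr7 on chromosome 7 from 143823145 to 143848410, and Lss on chromosome 10 from 76531588 to 76557138. Sqle and Srebf2 are both on chromosome 15, from 59315077 to 59331192 and from 82147181 to 82205379, and Insig1 is on chromosome 5 from 28071363 to 28078662. Fdps shares its strand with the overlapping protein-coding gene Gm43738 and Srebf2 with the overlapping annotated gene Gm49502, so reads could be divided between these pairs. Srebf2 also hosts the microRNA gene Mir33. Hmgcs1, Idi1 and Lss overlap genes annotated on the opposite strand, and the sources used here do not say whether counting used strand. The values of these 5 genes carry that uncertainty.

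The sorted libraries were epithelial. Epcam, which encodes an epithelial adhesion protein, ranged from 14073 to 37732 normalized counts (the authors' read counts per gene scaled for each library), while Ptprc, a gene of all leukocytes, ranged from 22.4 to 328. The authors' scaled totals ran from 10680267 to 19117886 per library, and the depth in reads is unknown. In sorted bulk cells, fewer cells of a type and less RNA per cell cannot be told apart. The names of 2 mRNA libraries conflict within the deposit: the third chow mouse is named as high fat, and the third high fat mouse as chow, in the column names of the small RNA table. The mRNA labels were followed, and the diet fits were also run with these 2 diets exchanged.

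The diet comparison asks whether these genes differed between crypt cells of high fat and chow mice. None of the 8 passed the test at a Benjamini-Hochberg adjusted p under 0.05 (limma on log2(normalized count + 1), 4 mice per group), where 135 of 16421 genes tested did (0.822%). At an unadjusted p under 0.05 the count was 1 of 8, against 26.7% of all genes. The directions were mixed, with 4 genes higher and 4 lower on the high fat diet, a median log2 difference of -0.03 and a range from -0.42 to 0.28. The median over all genes tested was 0.05. The count of genes called rested on single mice: it was 0 without chow mouse 1 or 4 or any single high fat mouse, 69 without chow mouse 3 and 2590 without chow mouse 2, and none of the 8 genes was called in any of these fits.

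Among the regulators, Srebf2 was measured at 2787, 3406, 2375 and 1941 normalized counts in chow mice 1 to 4 and at 3023, 3027, 2094 and 2484 in high fat mice 1 to 4. The groups overlap almost completely. The difference was 0.03 on the log2 scale, with a 95% interval from -0.40 to 0.46 (adjusted p = 0.946). Insig1 ranged from 326 to 516 in chow and from 333 to 534 in high fat mice, a log2 difference of -0.08 with an interval from -0.52 to 0.35 (adjusted p = 0.839).

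Of the early enzymes, Hmgcs1 makes HMG-CoA, the building block of mevalonate. Its values were 1504, 919.7, 2066 and 1260.2 in chow mice 1 to 4 and 1029.7, 1364, 850.2 and 952 in high fat mice 1 to 4. The high fat mean of 1049 ± 222 (SD, n = 4) lay below the chow mean of 1437 ± 483 (SD, n = 4), but chow mouse 2 was lower than 3 of the high fat mice. The log2 difference was -0.42, with an interval from -0.95 to 0.12 (adjusted p = 0.302).

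Idi1, which isomerizes the activated isoprene unit, was at 839, 924, 585 and 822 in chow mice 1 to 4 and at 1014, 913, 897 and 961 in high fat mice 1 to 4. Only chow mouse 2 overlapped the high fat range. The log2 difference was 0.27, with an interval from -0.07 to 0.62 (adjusted p = 0.285). Fdps, the enzyme that makes farnesyl diphosphate, was at 1820.2, 2345, 2271 and 2303 in chow and 2134, 1996, 1519 and 1743 in high fat mice. It had a log2 difference of -0.25 with an interval from -0.57 to 0.08 (adjusted p = 0.314).

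Of the late enzymes, Sqle oxidizes squalene and is a rate-limiting step of the sterol branch. Sqle was at 893, 806, 1303 and 1144 in chow mice 1 to 4 and at 798, 903, 673 and 745 in high fat mice 1 to 4. The first and second mice of the 2 diets overlap, whereas chow mice 3 and 4 lie above all the high fat mice. Its log2 difference was -0.39, with an interval from -0.78 to -0.01, an unadjusted p of 0.047 and an adjusted p of 0.181 in limma. Lss, which closes the sterol rings, and Dhcr7, which carries out the final reduction to cholesterol, had log2 differences of 0.28 (interval -0.32 to 0.88) and 0.04 (interval -0.59 to 0.67).

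The column names number the first and second mice of each diet from 180 to 183 and the others from 241 to 244. The sources used here do not say what these ranges stand for. Within the mice numbered 180 to 183 the log2 diet difference of Sqle was 0.00, and within those numbered 241 to 244 it was -0.79. Hmgcs1 showed 0.01 and -0.84, Insig1 0.27 and -0.44, and Fdps 0.00 and -0.49 in the same order. The test of this difference between the number ranges did not pass for any of the 8 genes (interaction in limma, smallest adjusted p = 0.268, for Sqle), nor for any of 16421 genes, of which 1970 had an unadjusted p under 0.05. With the diets of the third mice exchanged, Hmgcs1 changed to 0.22 and Sqle to 0.08, and no gene of the table was called.

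**Figure D1:**
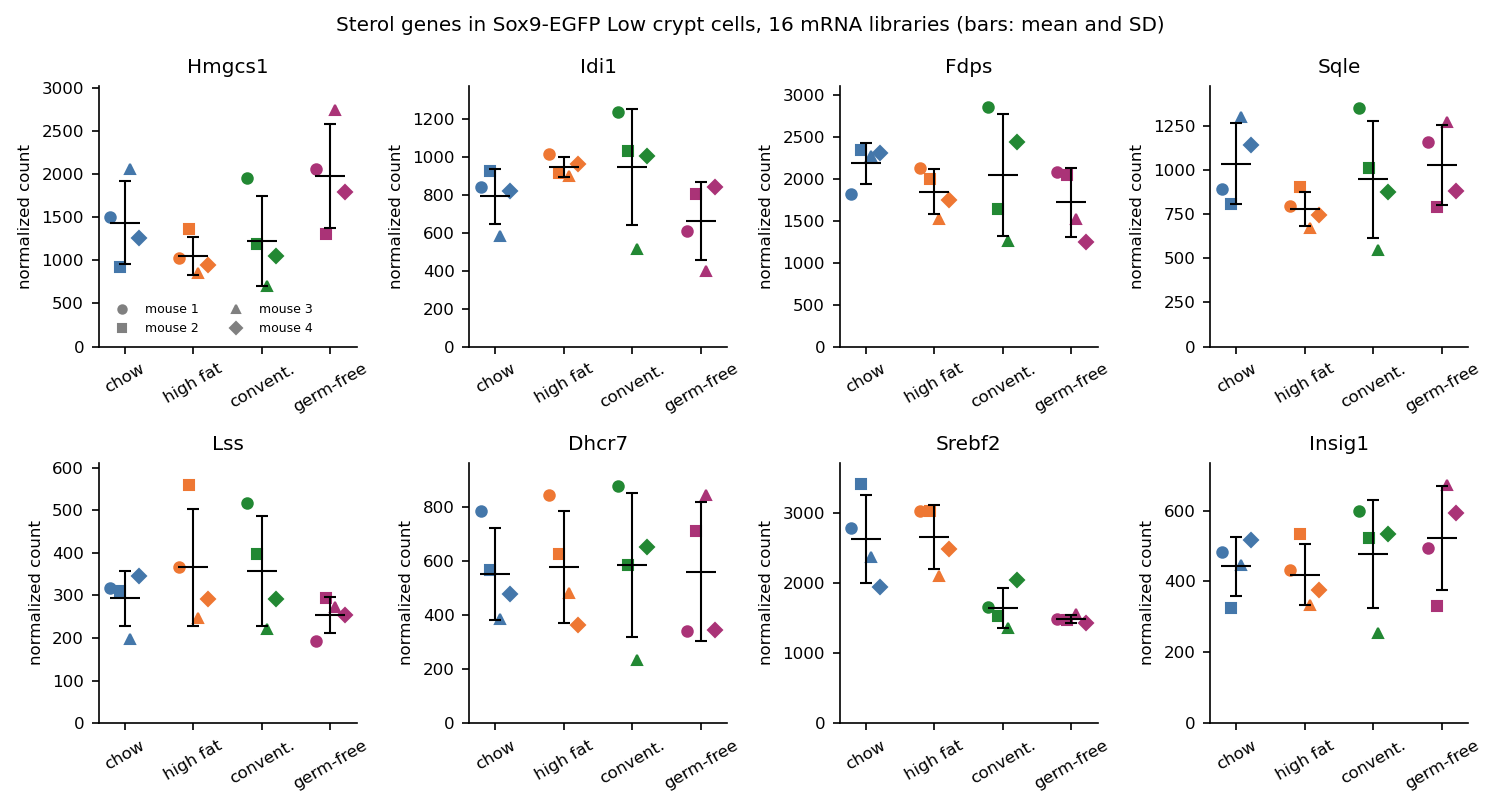
Normalized counts (vertical axes, linear) of the 8 genes in each of the 16 mRNA libraries, by group; symbols give the mouse number and black bars the mean and SD of 4 mice. For every gene the high fat range overlaps the chow range and the germ-free range overlaps the conventionalized range.

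The germ-free comparison asks whether these genes differed with the presence of microbes. None of the 8 passed the test (adjusted p under 0.05, limma, 4 mice per group), where 453 of 20214 genes did (2.24%). At an unadjusted p under 0.05 the count was 1 of 8, against 20.1% of all genes. Of the 8 genes, 3 were higher and 5 lower in germ-free mice; the median log2 difference was -0.08 and the range from -0.50 to 0.74. The median over all genes was 0.11, and 0.01 after a median-of-ratios rescaling. The count of genes called was 1 without germ-free mouse 1, 684 without germ-free mouse 2, 272 without germ-free mouse 3, and 146, 148 and 253 without conventionalized mouse 1, 2 and 4, again with none of the 8 among them.

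Hmgcs1 had the largest difference of the 8. It was at 2063, 1307, 2750.1 and 1795 in germ-free mice 1 to 4 and at 1956, 1191, 707 and 1047 in conventionalized mice 1 to 4. Germ-free mice 1 and 3 lay above every conventionalized mouse, while conventionalized mouse 1 lay above germ-free mice 2 and 4. The means were 1979 ± 602 and 1225 ± 528 (SD, n = 4 each), and the log2 difference was 0.74 with an interval from 0.02 to 1.45. Its unadjusted p was 0.0436 and its adjusted p 0.238 in limma.

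The next enzymes of the same arm lay the other way. Idi1 was at 611, 804, 397 and 841 in germ-free mice 1 to 4 and at 1236, 1033, 512 and 1003 in conventionalized mice 1 to 4, a log2 difference of -0.50 with an interval from -1.21 to 0.22 (adjusted p = 0.380). Germ-free mouse 3 held both the highest Hmgcs1 and the lowest Idi1 of all 16 libraries. Fdps was at 2075, 2050.1, 1516 and 1243 in germ-free and 2849.8, 1640.2, 1263 and 2433 in conventionalized mice, a log2 difference of -0.21 with an interval from -0.86 to 0.44.

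Lss was at 194, 294, 272 and 255 in germ-free and 517, 398, 221 and 292 in conventionalized mice. Conventionalized mice 1 and 2 lay above every germ-free mouse, and conventionalized mice 3 and 4 within the germ-free range. The log2 difference was -0.44 with an interval from -1.12 to 0.25 (adjusted p = 0.414). Sqle showed 0.16 (interval -0.48 to 0.81), Dhcr7 -0.04 (interval -0.96 to 0.89) and Insig1 0.15 (interval -0.56 to 0.87) on the same scale.

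Srebf2 was tightly grouped in germ-free mice, at 1479, 1469.6, 1562 and 1431, against 1654, 1534, 1362 and 2035 in conventionalized mice. Its log2 difference was -0.13, with an interval from -0.61 to 0.34. The 8 diet libraries ran from 1941 to 3406 for this gene and the 8 germ-free and conventionalized libraries from 1362 to 2035. Diet libraries and microbe libraries differ in mice and may differ in preparation, which cannot be told apart, so no test was made between them.

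**Figure D2:**
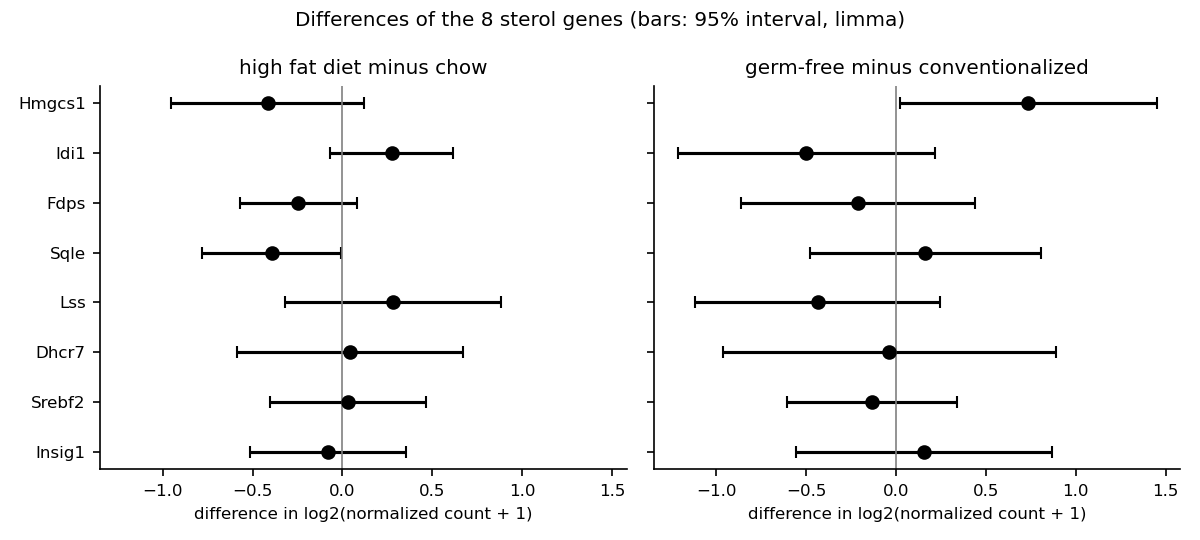
Differences in log2(normalized count + 1) (horizontal axis) for the 8 genes, high fat diet minus chow at left and germ-free minus conventionalized at right; points are limma estimates and bars 95% intervals over 4 mice per group. The intervals span 0 except for Sqle at left (-0.78 to -0.01) and Hmgcs1 at right (0.02 to 1.45), neither of which passed after adjustment.

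Ordered by group mean, neighbouring groups overlapped in their ranges for all 8 genes, so the full order of the 4 groups is not resolved for any of them. Groups further apart did not always overlap. Srebf2 in high fat mice, at 2094 to 3027, lay above the conventionalized range of 1362 to 2035. Idi1 in high fat mice, at 897 to 1014, lay above the germ-free range of 397 to 841. Diet and microbe libraries were not tested against each other. For Hmgcs1 the order was germ-free, chow, conventionalized and high fat, with means from 1979 down to 1049. For Sqle it was chow, germ-free, conventionalized and high fat, from 1036 down to 779.6. Within a gene, the highest of the 16 libraries exceeded the lowest by 2.29-fold (Fdps) to 3.89-fold (Hmgcs1).

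Single libraries set much of this spread. In conventionalized mouse 3 all 8 genes lay below their own mean over the 16 libraries, by 0.74 on the log2 scale on average, and 5 of the 8 had their lowest value there. In conventionalized mouse 1, 7 of the 8 lay above their own mean, by 0.49 on average over the 8, and 4 had their highest value there. Summed markers of goblet cells, the mucus-secreting cells, were highest of all 16 libraries in conventionalized mouse 1, at 602377 normalized counts, and lower in conventionalized mouse 3, at 35292. They were lower still in conventionalized mouse 2, at 19948, and at 75261 in conventionalized mouse 4, where the 8 genes averaged 0.06 and 0.09 above their own means. Other marker sums also set conventionalized mouse 1 apart. Its enterocyte sum was 48041, against 10971, 19222 and 20005 in conventionalized mice 2 to 4. Its sum for tuft cells, a chemosensory type, was the lowest of the 16 libraries, at 1585. Its stem cell sum of 62700 was the lowest of the conventionalized mice. The part of these markers in the sterol values was not tested. Without conventionalized mouse 3 the germ-free differences were 0.50 for Hmgcs1, -0.77 for Idi1, -0.64 for Lss, -0.42 for Fdps and -0.43 for Dhcr7, while Sqle and Insig1 turned to -0.07 and -0.12. None of these passed the test.

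**Figure D3:**
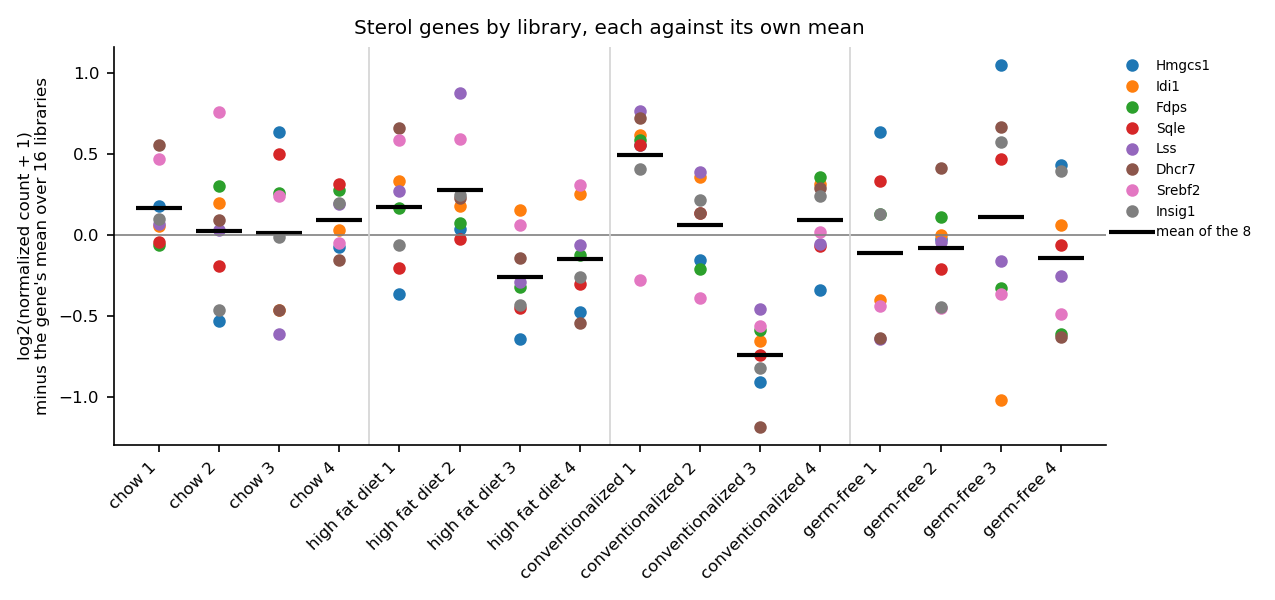
Each gene's log2(normalized count + 1) minus its own mean over the 16 libraries (vertical axis), by library; colours give the gene and black bars the mean of the 8 genes. All 8 points of conventionalized mouse 3 lie below 0, at -0.74 on average, and those of conventionalized mouse 1 average 0.49.

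Markers of other cell types also differed in these comparisons, some lists in 1 direction and others in both. Over all genes tested, 0.822% passed with diet and 2.24% with germ-free status. Markers of tuft cells, a rare chemosensory type, were lower on the high fat diet for 12 of 12 genes tested, 6 of which passed, and their sum ranged from 2058 to 10148 normalized counts against 16913 to 36141 in chow. Enteroendocrine (hormone-secreting) markers were lower for 15 of 15 genes, 1 of which passed, with sums from 127801 to 327746 against 400604 to 1359588. Cycling markers were higher on the high fat diet for 13 of 13 genes and goblet markers for 10 of 10, with none passing. Enteroendocrine markers were higher in germ-free mice for 15 of 15 genes, 5 of which passed, with sums from 638892 to 1377320 against 144323 to 353487 in conventionalized mice. Cycling markers were lower in germ-free mice for 13 of 13 genes, 4 of which passed, with sums from 4275 to 21176 against 29378 to 37783. Stem cell markers were lower in germ-free mice for 10 of 10 genes, with none passing. On the high fat diet 7 stem cell genes were higher and 3 lower, and 1 passed, a rise. Enterocyte markers were mixed. With diet 10 of 15 were higher and 5 lower, with none passing. In germ-free mice 5 were higher and 10 lower, and 2 passed, both higher. Of 9 tested markers of Paneth cells, which secrete defensins, 8 were higher and 1 lower with diet. In germ-free mice 1 was higher and 8 lower, and none passed in either comparison. T lymphocyte marker sums were 18.5 to 25.2 on the high fat diet against 69.3 to 169.6 in chow, without overlap. Of the 3 T lymphocyte genes tested 2 were lower and 1 higher, and 1 passed, a fall. T lymphocyte sums were 88.0 to 304 in germ-free and 78.4 to 168 in conventionalized mice. Myeloid sums were 165 to 379 in germ-free against 428 to 549.6 in conventionalized mice, without overlap, with none of 7 genes passing, and 362 to 437 on the high fat diet against 388 to 610.2 in chow. B lymphocyte or plasma sums were 32.4 to 192 and stromal or endothelial sums 32.6 to 1074 over all libraries. Among the listed markers that the mRNA table holds, none was at 0 throughout a group, apart from 1 T lymphocyte gene in high fat mice. Stromal or endothelial sums were 479 to 1074 in germ-free and 67.4 to 522 in conventionalized mice, and 1 of the 8 genes tested passed. With the diets of the third mice exchanged, no gene was called, so none of the diet calls above held. Chow mouse 3 had the highest tuft sum of the 16 libraries, 36141, and high fat mouse 3 had 10148. After that exchange the tuft, enteroendocrine and T lymphocyte sums overlap between the diets. The part of these cell types in the sterol values was not tested.

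The rest of the pathway was read in the same fits. The lists were drawn up with earlier results of these data known. Of 14 other sterol synthesis enzymes, none passed with diet and none with germ-free status. On the high fat diet 9 were higher and 5 lower, with a median log2 difference of 0.11. In germ-free mice 3 were higher and 11 lower, with a median of -0.39 against 0.11 for all genes. The smallest p-values of this list went to Acat2, a thiolase that feeds the pathway, and Lbr, a sterol reductase of the nuclear envelope, in both comparisons. Acat2 differed by 0.45 with diet (adjusted p = 0.114, limma) and by -0.73 in germ-free mice (adjusted p = 0.190, limma). Lbr differed by 0.40 (adjusted p = 0.123, limma) and by -0.71 (adjusted p = 0.200, limma). With the diets of the third mice exchanged, the diet differences were 0.07 for Acat2 and 0.03 for Lbr.

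None of 13 other regulators of sterol balance passed in either comparison. Stard4, a sterol carrier, differed by 0.63 with diet (adjusted p = 0.125, limma) and by -1.97 in germ-free mice (adjusted p = 0.135, limma). Its germ-free values of 329.9, 411, 79.9 and 37.6 lay below every conventionalized value, the lowest of which was 424. Srebf1, the gene of the lipid-synthesis factor SREBP1, differed by 0.60 with diet (adjusted p = 0.113, limma). Mylip, which marks lipoprotein receptors for breakdown, differed by 1.37 in germ-free mice (adjusted p = 0.194, limma).

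Sterol uptake, export and esterification held the only pathway gene that passed. Of its 14 genes, Scarb1 rose in germ-free mice and no other passed, where 2.24% of all genes tested did. An unadjusted p under 0.05 (limma) was found for 6 of the 14, against 20.1% of all genes. Scarb1 encodes a receptor that takes up lipoprotein cholesterol. It was at 2123, 969, 2543 and 1619 in germ-free mice 1 to 4 and at 328, 418, 622 and 659 in conventionalized mice 1 to 4, with no overlap. The log2 difference was 1.81, with an interval from 1.08 to 2.53 (adjusted p = 0.0185, limma). It missed the threshold without germ-free mouse 1 (adjusted p = 0.072) or without conventionalized mouse 1 or 2 (adjusted p = 0.061 and 0.0642), with log2 differences of 1.62 to 1.73; over all alternatives run its adjusted p ranged from 0.00564 to 0.072. In the diet libraries Scarb1 was at 782, 588, 3337 and 1310 in chow mice 1 to 4, which overlaps the germ-free range. It was at 330 to 784 in high fat mice. Diet and microbe libraries were not tested against each other. The enteroendocrine markers were higher in the germ-free mice and the enterocyte markers were mixed. The part of both in the Scarb1 values was not tested. With diet none of the 14 passed; Abcg8, a subunit of the sterol export pump, differed by 0.46 (adjusted p = 0.102, limma) and Lrp1, a lipoprotein receptor, by 0.59 (adjusted p = 0.109, limma).

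None of the genes tested from the fatty acid synthesis list passed in either comparison (13 with diet, 14 with germ-free status). Scd2, a fatty acid desaturase, was at 298, 189, 275 and 241 on the high fat diet and at 659, 617, 322 and 565 in chow, with no overlap and a log2 difference of -1.08 (adjusted p = 0.0682, limma). Acly, which supplies the acetyl units for both fatty acids and sterols, differed by -0.58 (adjusted p = 0.0823, limma), and its diet groups did not overlap. With the diets of the third mice exchanged, the groups overlap for both Scd2 and Acly, and Acly differed by -0.27. In germ-free mice the desaturases Fads1 and Fads2 differed by -1.07 (adjusted p = 0.083, limma) and -1.42 (adjusted p = 0.0969, limma). None of 10 genes of other isoprenoid branches passed. Pdss1, which builds the tail of coenzyme Q, differed by 0.88 with diet (adjusted p = 0.0969, limma) and by -1.45 in germ-free mice (adjusted p = 0.228, limma). Coq2, of the same route, differed by 0.30 with diet (adjusted p = 0.116, limma), and Pdss2, its partner in tail synthesis, by -0.59 in germ-free mice (adjusted p = 0.284, limma).

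Across the 16 libraries the 8 genes did not all run together. The Pearson correlation of a gene with the mean of the other 7 was highest for Dhcr7 (r = 0.67) and lowest for Srebf2 (r = 0.19), with Hmgcs1 and Idi1 at 0.30 and 0.31. Among 12455 other genes, those most like the mean of the 8 included 2210011C24Rik (r = 0.86), Copb2 (r = 0.86), Vps53 (r = 0.85), Slc35e1 (r = 0.84), Sec61a1 (r = 0.84), Soat2 (r = 0.83) and Dnaaf5 (r = 0.83). Soat2 encodes the enzyme that esterifies cholesterol in enterocytes and was the only one of these named genes on the pathway lists. Of the other sterol enzymes, Mvd ranked at 27, Msmo1 at 81 and Cyp51 at 104 of the 12455. These correlations are descriptions over 16 libraries that share scaling and, within each pair of groups, their mice's conditions.

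The knockout comparison asks whether the genes differed in epithelium that lacks miR-375. Epithelial cells were taken as those with at least 1 Epcam UMI (unique molecular identifier, a count of 1 captured RNA molecule). This left 1167 WT and 1218 KO cells in set 1, and 2035 WT and 2486 KO cells in set 2, with 24018281 to 50546126 UMIs per sample. No feature named Mir375 is among the 27998 genes, so the deleted gene itself could not be checked. Set 1 shared 1 barcode between WT and KO of 1209 and 1251, and set 2 shared 12 of 7711 and 7665. The sets differ in quality: the median share of mitochondrial UMIs before filtering was 5.90% and 5.62% in set 1 and 40.9% and 37.9% in set 2, and in the Epcam-positive cells kept 5.95%, 5.68%, 9.43% and 10.2%.

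None of the 8 genes passed (edgeR quasi-likelihood, 2 WT and 2 KO samples), and 0 of 13254 genes did (0.0%). At an unadjusted p under 0.05 the count was 0 of 8, against 91 genes (0.687%), and DESeq2 called 7 genes, none of them among the 8. All 8 estimates were negative in KO, from -0.33 for Fdps to -0.01 for Srebf2, with a median of -0.21 against 0.01 for all genes tested. With the set as a block, no gene was called, 356 had an unadjusted p under 0.05, and 1 of the 8 did, Fdps at -0.30 (edgeR, adjusted p = 0.9996).

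In set 1, 5 of the 8 genes were lower in KO than in WT, with a median KO to WT ratio of 0.904 in CPM (the UMIs of a gene, scaled to a total of 1000000 UMIs for the sample or class). Over 8620 genes with a mean of at least 5 CPM the median ratio was 1.02 and 44.0% were lower. In set 2 all 8 were lower, with a median ratio of 0.775, while 81.8% of 8966 genes were also lower and their median was 0.905. Each set has 1 sample per genotype, so these ratios have no replicate check, and their intervals are exact 95% intervals that cover counting error only.

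Fdps was at 47.0 CPM in WT and 41.9 in KO of set 1, and at 108 and 74.1 in set 2. The ratios were 0.892 (0.818 to 0.972) and 0.686 (0.658 to 0.716). Idi1 was at 41.4 and 37.2 in set 1 and at 71.4 and 52.9 in set 2, with ratios of 0.9 (0.821 to 0.985) and 0.741 (0.704 to 0.78). Hmgcs1 was at 50.5 and 45.9, then at 98.8 and 81.1, with ratios of 0.908 (0.836 to 0.986) and 0.821 (0.787 to 0.856). For these 3 early enzymes the difference between WT samples of the 2 sets was larger than the difference between genotypes within a set.

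Sqle was at 15.2 in WT and 15.4 in KO of set 1 and at 38.8 and 28.9 in set 2, with ratios of 1.01 (0.875 to 1.17) and 0.746 (0.696 to 0.8). Lss was at 7.17 and 7.24, then at 8.94 and 6.80, with ratios of 1.01 (0.814 to 1.26) and 0.761 (0.658 to 0.879). Dhcr7 was at 22.3 and 19.4, then at 24.3 and 19.2, with ratios of 0.867 (0.764 to 0.984) and 0.789 (0.723 to 0.86). Of the late enzymes, Dhcr7 alone was lower in KO in both sets with both intervals below 1.

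The regulators differed from each other. Insig1 was at 19.09 and 12.7 in set 1 and at 22.9 and 20.99 in set 2, with ratios of 0.667 (0.576 to 0.773) and 0.918 (0.843 to 0.9998). Srebf2 was at 29.4 and 32.8 in set 1 and at 31.6 and 25.1 in set 2, with ratios of 1.12 (1.01 to 1.24) and 0.794 (0.736 to 0.856). Srebf2 is the only gene of the 8 whose intervals lie on opposite sides of 1 in the 2 sets.

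**Figure D4:**
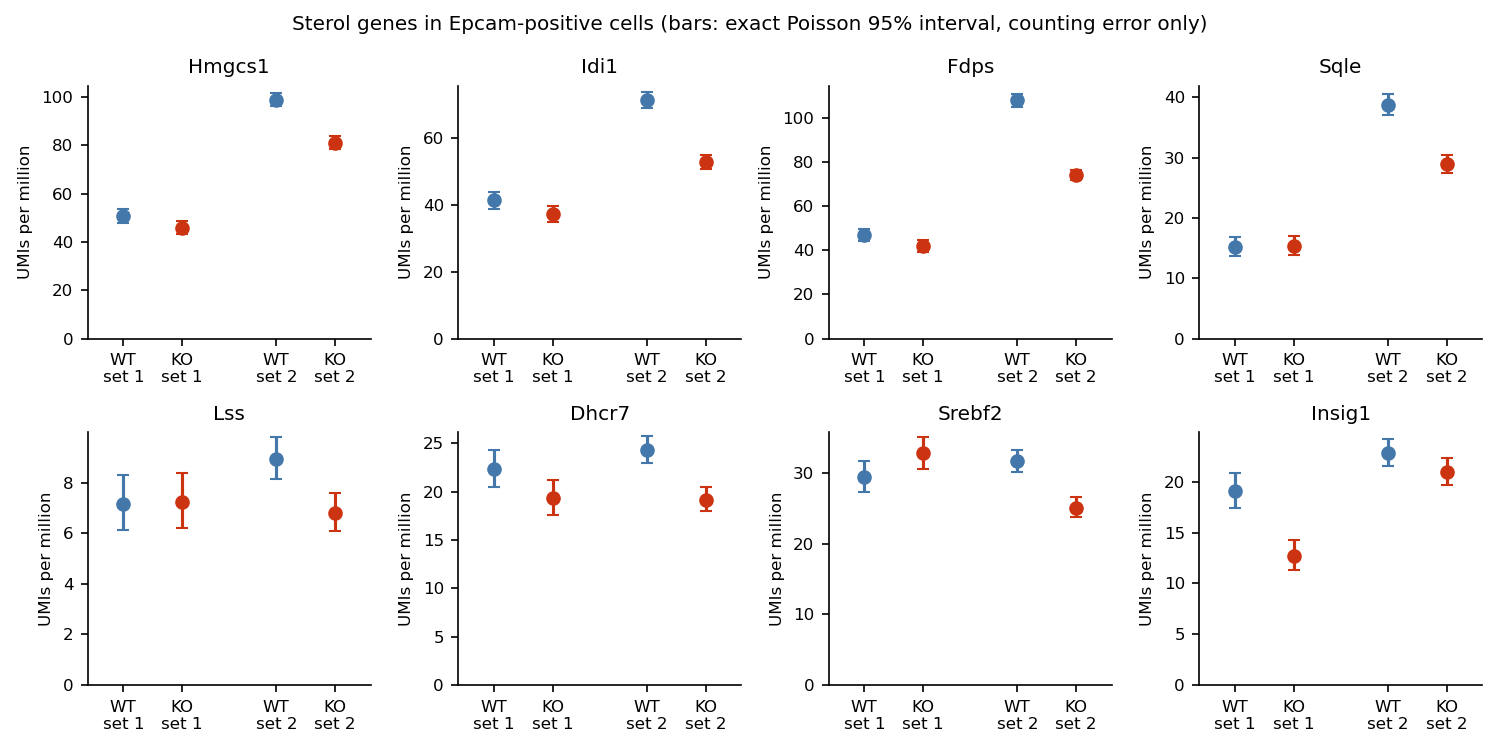
CPM (vertical axes, linear, from 0) of the 8 genes in Epcam-positive cells of each sample; blue is WT, red is KO, and bars are exact Poisson 95% intervals that cover counting error only. In set 2 the KO point lies below WT for all 8 genes, and in set 1 for 5 of 8.

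The samples differ in makeup beside these values. Cells in leukocyte clusters made up 0.943% and 1.56% of Epcam-positive cells in WT and KO of set 1, and 21.7% and 12.0% in WT and KO of set 2, where they held 2.69% and 1.68% of the UMIs. Paneth-like cells, which resemble the defensin-secreting cells of the crypt base, held 24.0% and 23.0% of the UMIs in set 1, and 7.73% and 15.1% in WT and KO of set 2. Without the leukocyte clusters the estimates of the 8 genes ran from -0.34 (Fdps) to -0.01 (Srebf2), and without the Paneth-like clusters from -0.33 (Fdps) to -0.02 (Srebf2), with no gene called in either case (edgeR). Tuft markers were higher in KO for 11 of 11 genes tested and T lymphocyte markers lower for 9 of 9, with none passing; their part in the sterol values was not tested.

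The other lists gave no call in the knockout comparison. Of the 14 other sterol synthesis enzymes 12 were lower in KO, with a median of -0.12, and the smallest p-values went to Nsdhl (-0.35) and Mvd (-0.26). Among 12 tested regulators, 9 were lower, and the smallest p-values went to Insig2 at 0.32 and Erlin2 at -0.20. Of 13 tested genes of sterol uptake, export and esterification 8 were lower, with Soat1 at 0.37 and Soat2 at -0.50. Of 12 tested fatty acid genes 9 were lower, with Scd2 at -0.77 and Elovl6 at -0.29, and 5 of 10 isoprenoid genes were lower, with Pdss1 at -0.14 and Fntb at 0.13. All of these had an adjusted p of 0.9999 (edgeR).

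Levels of one class against another were described without a test, since the cells were clustered on these same genes. Classes were named by marker lists, and each needed at least 20 Epcam-positive cells in a sample. Summed over the 8 genes, Paneth-like cells had the lowest level in each sample, from 34.7 to 93.4 CPM, and stem-like cells came next in WT and KO of set 1 and in KO of set 2, while tuft-like cells did in WT of set 2. Defensins took 58.0% to 73.4% of Paneth-like UMIs; with defensins left out of the total, the Paneth-like sums were 122 to 233 CPM and no longer the lowest in any sample. Stem-like cells were then lowest in WT and KO of set 1 and KO of set 2, at 128, 108 and 201 CPM, and tuft-like cells in WT of set 2, at 196. Per cell, the lowest epithelial sums were those of stem-like cells in WT and KO of set 1 (1.81 and 1.53 UMIs), tuft-like cells in WT of set 2 (2.29) and enteroendocrine-like cells in KO of set 2 (2.66), against 2.43 to 5.70 in Paneth-like cells.

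In goblet-like cells the summed level was 375 and 286 CPM in WT and KO of set 1 and 591 and 487 in WT and KO of set 2, against 275, 295, 341 and 262 in enterocyte-like cells of the same samples. It was above enterocyte-like cells in 3 of 4 samples and slightly below in KO of set 1. Tuft-like cells, at 382 and 302 CPM, lay slightly above goblet-like cells in WT and KO of set 1, and T lymphocyte-like cells, at 632 and 659, in WT and KO of set 2. Sqle, Idi1, Fdps and Lss were higher in goblet-like than in enterocyte-like cells in 4 of 4 samples, with median ratios of 2.24, 1.47, 1.85 and 1.92. Dhcr7 was lower in 4 of 4, with a median ratio of 0.627. A goblet-like cluster of set 2 also had the cycling genes Ube2c and Mki67 among its leading genes.

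Cycling-like cells exceeded stem-like cells for all 8 genes in all 4 samples, with median ratios from 1.67 (Lss) to 2.83 (Insig1). This was not particular to cycling-like cells. Goblet-like cells also exceeded stem-like cells for all 8 genes in all 4 samples, with median ratios from 1.41 (Dhcr7) to 3.76 (Insig1). Enterocyte-like cells did so in all 4 samples except for Idi1, in 3 of 4, with median ratios from 1.19 (Idi1) to 3.35 (Insig1). Stem-like cells were defined in set 2 by Olfm4 and Slc12a2 with some cycling genes, and in set 1 by Lgr5 and Ascl2 among others. A cycling-like cluster of set 1, with 207 cells, also had the stem markers Ascl2 and Cdca7 among its leading genes. The cycling-like class may therefore include cycling stem cells. Hmgcs1 was at 12.2 and 21.3 CPM in stem-like cells of WT and KO of set 1, and at 46.4 and 44.4 in set 2. In cycling-like cells it was at 56.2 and 58.1 in set 1, and at 79.4 and 86.3 in set 2.

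Within goblet-like cells all 8 genes were lower in KO than in WT in both sets. The ratios ran from 0.576 (Hmgcs1) to 0.916 (Srebf2) in set 1, with a median of 0.717, and from 0.733 (Lss) to 0.929 (Sqle) in set 2, with a median of 0.819. Over all genes with a mean of at least 5 CPM in that class, 59.9% were lower in set 1 with a median ratio of 0.955, and 55.8% were lower in set 2 with a median of 0.985. These values come from 179 WT and 236 KO cells in set 1 and 394 WT and 507 KO cells in set 2, and a ratio within 1 set has no replicate check. In stem-like cells 6 of the 8 genes were lower in set 1 (median ratio 0.753) and 7 of 8 in set 2 (median ratio 0.805), close to the goblet-like counts. In enterocyte-like cells 2 of the 8 were lower in set 1 (median ratio 1.09) and 7 of 8 in set 2 (median ratio 0.763), in tuft-like cells 7 of 8 in set 1 and 1 of 7 in set 2, and in cycling-like cells 5 of 8 in each set.

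The 4 samples were also tested within each of the 7 classes that all of them hold, a test added after the ratios were seen. No gene was called in any class (edgeR quasi-likelihood, 0.0% of 4924 to 10941 genes tested), 20 to 114 genes per class had an unadjusted p under 0.05, and DESeq2 called 0 to 6. None of the 8 genes had an unadjusted p under 0.05 in any class. In goblet-like cells all 8 estimates were negative, from -0.47 for Lss to -0.10 for Srebf2, with a median of -0.27 against -0.0019 for all genes (smallest adjusted p = 0.9998, edgeR; 98 of all genes, 0.896%, had an unadjusted p under 0.05). In stem-like cells 6 of the 7 genes tested were negative, with a median of -0.36 against -0.0059 for all genes. Negative estimates numbered 6 of 8 in enterocyte-like, 5 of 8 in cycling-like and 2 of 7 in Paneth-like cells. They numbered 2 of 5 in both enteroendocrine-like and tuft-like cells. With the set as a block, 80 genes were called in goblet-like cells (0.731%), none of them among the 8. Of the 8, 4 had an unadjusted p under 0.05 in that fit, Hmgcs1, Fdps, Lss and Dhcr7, against 6.04% of all genes, and the smallest adjusted p was 0.132, for Hmgcs1 at -0.45 (edgeR). The block fit of cycling-like cells gave 2 of 8, Idi1 and Fdps, against 375 of 10340 genes. That of stem-like cells gave 1 of 7, Fdps, against 294 of 9128. In Paneth-like cells it was 1 of 7, Dhcr7, against 323 of 8032. Enterocyte-like, enteroendocrine-like and tuft-like cells gave none.

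**Figure D5:**
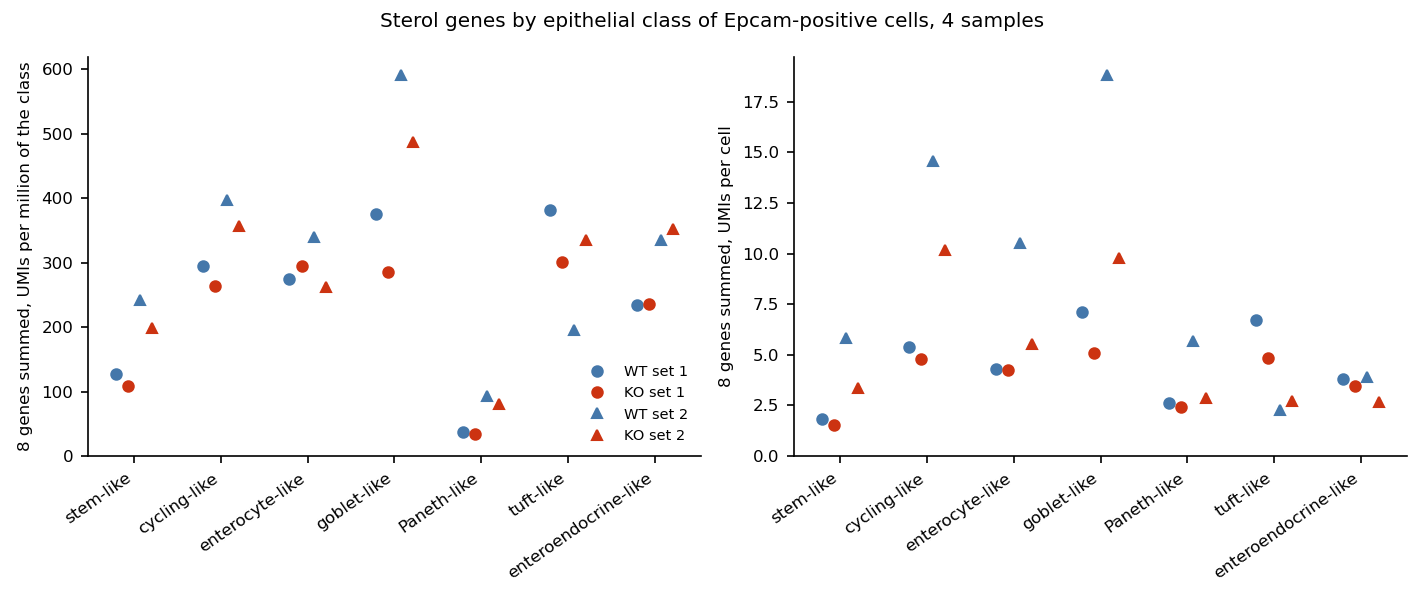
The 8 genes summed in each epithelial class of Epcam-positive cells, as CPM of the class at left and UMIs per cell at right; circles are set 1 and triangles set 2, blue is WT and red KO. Goblet-like points reach 591 CPM and Paneth-like points do not exceed 93.4.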

How the data were processed

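For mRNA, the authors deposited a signal table of read counts normalized per library; the submitters' processing notes name STAR, Salmon, DESeq2, Cell Ranger and mm10 without versions or roles. Per the labels' protocols the mRNA libraries were SMARTer Ultra Low Input with Nextera XT, and the single-cell libraries 10X Genomics Chromium, for which the authors deposited UMI counts per gene and barcode. The other deposited tables were not used, except for small RNA column names. Whole reads could not be recovered from the normalized counts: 46.8% to 55.2% of values above 0 were whole multiples of a library's step (tolerance 0.01). Entries with no gene name made up 0.0338% to 0.0804% of a library's sum and were left out.

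limma 3.58.1 (R 4.3.3, eBayes with trend) was fitted on log2(value + 1) to the 2 groups compared, over genes with a mean of at least 10, with Benjamini-Hochberg adjustment over all genes tested, threshold 0.05, two-sided. Fold changes on this scale understate those of low genes. Cells needed 500 genes, 1000 UMIs and under 25% mitochondrial UMIs. Scrublet (scanpy 1.11.5) marked 2, 4, 12 and 26 cells by its own threshold, too few to rely on, so the highest scores were removed at 0.8% per 1000 barcodes. UMIs of cells with an Epcam UMI were summed per sample and tested with edgeR 4.0.16 (quasi-likelihood, TMM, filterByExpr), with DESeq2 1.42.0 as an alternative. Clusters were built per set (2000 variable genes, 30 components, 15 neighbours, resolution 1) and named from at least 3 markers raised 2-fold. The labels give each WT and KO sample a set number, taken as a pairing, without saying what a set is; deviations of same-set samples correlated at r = 0.71 over 7006 genes. Intervals at 95% cover counting error only.

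The genes named are the 8 members, from each pathway list the genes that pass in a comparison (or, where none passes, the 2 with the smallest p-values), and the 8 genes most like the members' mean over the 16 libraries (genes with a mean of at least 50), of which 1 is not reported here. Members and lists were chosen with earlier results of these data known. The main limma fits and the main edgeR fit over all epithelial cells were tested on simulated data. The DESeq2, block, weight, covariate, interaction and class fits were not. Alternatives covered scaling, pseudocount, filters, blocks, weights, cell gates and left-out libraries; those on the third mice, the interaction, the leukocyte and Paneth-like clusters and the fits within classes were chosen after seeing the data.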

Additional observations from a re-analysis of the deposited data

Results flagged for a closer look

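Fdps was flagged in the chow libraries because 1 mouse stood apart: chow mouse 1 had 1820.2 normalized counts and the other chow mice 2271 to 2345, a gap of 0.8588 of the group's range, above Dixon's critical value at the 95% level. Across the 32 groups of 4 libraries examined, chance flags about 1 in 20.

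Srebf2 was flagged because its KO to WT ratio in Epcam-positive cells lay above 1 in set 1 (1.116) and below 1 in set 2 (0.7938). With 1 sample per genotype and set, this difference between the sets was not tested.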

How the results depend on the processing

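None of the 8 genes was called in any comparison under any alternative run; the smallest adjusted p of any of them was 0.0694 for Sqle with diet, 0.118 for Hmgcs1 with germ-free status, 0.999 in the knockout over all epithelial cells and 0.132 for Hmgcs1 within a class. The number of genes called with diet (135) was 317 without a filter, 33 with the spread of all 4 groups, 1845 with library weights, 1535 with the animal number range as a covariate, 0 with the third mice exchanged, 12 without them, and 0 to 2590 when 1 mouse was left out. With germ-free status (453) it was 1672 with the spread of all 4 groups, 945 with weights and 1 to 684 when 1 mouse was left out. In the knockout (0) it was 7 in DESeq2 and 0 to 1 when 1 sample was left out, which leaves an arm with 1 sample that is assumed to vary like the other.

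With a replicate block, 271 genes were called with diet and 494 with germ-free status; same-numbered mice correlated at r = 0.0441 to 0.219 and -0.128 to 0.4, and in 1 of 4 numbers per comparison the same-numbered mouse was the best partner, so the numbers were not taken to pair mice. The set block changed no call in the knockout over all epithelial cells. Within classes (0 called in each) it gave 80 genes in goblet-like, 32 in Paneth-like, 13 in enteroendocrine-like, 6 in cycling-like and 5 in both stem-like and tuft-like cells. DESeq2 gave 6 in goblet-like and enterocyte-like, 2 in cycling-like and stem-like and 1 in enteroendocrine-like cells. With 1 sample left out the counts were 0 to 5 in Paneth-like, 0 to 10 in cycling-like, 1 to 33 in enteroendocrine-like, 3 to 19 in stem-like, 0 to 33 in tuft-like and 0 to 0 in goblet-like and enterocyte-like cells. In goblet-like cells that turned Hmgcs1 (-1.13 to 0.055), Sqle (-0.82 to 0.19), Idi1 (-0.41 to 0.0033), Fdps (-0.53 to 0.12) and Srebf2 (-0.31 to 0.099).

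Directions turned with the third mice exchanged for Hmgcs1 (0.22), Sqle (0.084), Idi1 (-0.033), Fdps (0.044), Dhcr7 (-0.12), Insig1 (0.13) and Pdss1 (-0.0069), and without both for Dhcr7 (-0.0496) and Insig1 (0.032). Other named genes kept their direction but shrank with that exchange: Acat2 (0.067), Lbr (0.033), Srebf1 (0.25), Stard4 (0.22), Abcg8 (0.17), Lrp1 (0.35), Coq2 (0.086) and Acly (-0.27). Weights turned Dhcr7 with diet (-0.15) and Fdps (0.021) and Insig1 (-0.11) with germ-free status. Quantile normalization turned Srebf2 with diet (-0.15) and Fdps (0.020), Dhcr7 (0.15) and Srebf2 (0.11) with germ-free status. In the knockout, Srebf2 turned with under 10% mitochondrial UMIs (0.019), and Hmgcs1 (0.036) and Srebf2 (0.067) after thinning to 2000 UMIs per cell, which left out 311 WT and 411 KO cells of set 2. Leaving out 1 mouse turned, with diet, Dhcr7 (-0.16 to 0.24), Insig1 (-0.22 to 0.022) and Srebf2 (-0.11 to 0.17), and, with germ-free status, Sqle (-0.075 to 0.36), Dhcr7 (-0.43 to 0.21) and Insig1 (-0.12 to 0.36). Leaving out 1 sample turned, in the knockout, Hmgcs1 (-0.51 to 0.16), Sqle (-0.60 to 0.38), Fdps (-0.68 to 0.14), Srebf2 (-0.33 to 0.24), Pdss1 (-0.37 to 0.043) and Fntb (-0.060 to 0.30). Causes were not tested.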
